A study of Homo sapiens with 6 samples.

Results

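The 60 genes described here lie on the long arm of human chromosome 21, in order from the centromere to the end of the arm, and surround N6AMT1, the gene that was cut. They were found by symbol among the 19330 genes of the count table. The 60 genes were chosen by their position on chromosome 21 with earlier results of these data known, among them lower values on this chromosome in sgN6AMT1. The comparison of sgN6AMT1 with sgCtrl is therefore part of the choice, and its values for the listed genes are given as a description, with a standard error (SE). Calls of listed genes by a threshold on p are part of that description, and no p is printed for them. N6AMT1 itself is not on the list. In GRCh38 it occupies chromosome 21, 28872191 to 28885371, on the minus strand. The list runs from HSPA13, which starts at 14371115, to PRMT2, which ends at 46665124. 9 listed genes lie between the centromere and N6AMT1 (centromeric), and 51 lie between N6AMT1 and the end of the arm (telomeric).

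Ribosome footprints were sequenced from K562, a chronic myelogenous leukemia cell line with an abnormal chromosome number. Cells carried pLentiCRISPRv2, which delivers Cas9 and its guide, with a guide either to N6AMT1 (sgN6AMT1, 3 libraries) or to olfactory receptor genes that served as controls (sgCtrl, 3 libraries). The labels name the control targets OR11A1 and OR2M49, the study's methods name OR2M4 in place of OR2M49 and also EGFP, and which control guide each sgCtrl library carried is not stated. Both groups went through 48 h of puromycin and were analysed 10 days after infection. Both groups thus carried Cas9 and had been selected with the drug, and no step that isolates single clones is described. Chromosome copy number was not analysed here.

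Ribosome profiling counts the mRNA stretches that a translating ribosome covers, so a footprint count reflects how much mRNA is present as well as how often it is translated. Cas9 makes a double-strand break at the site its guide matches, and repair of the break often leaves small insertions or deletions there. Chromosome 21 is the smallest human autosome and an extra copy of it gives Down syndrome. It carries the receptors for several interferons, the purine enzyme GART, the oxygen radical scavenger SOD1 and a group of factors for ribosome assembly and RNA processing.

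N6AMT1 encodes a methyltransferase of the translation release factor eRF1. It had 25, 24 and 34 counts in sgCtrl 1 to 3 but 10, 9 and 8 in sgN6AMT1 1 to 3. The groups did not overlap, and the log2 fold change of N6AMT1, sgN6AMT1 over sgCtrl, was -1.51 ± 0.31 (SE), with an edgeR adjusted p of 6.69e-05. Library totals ranged from 1821356 to 2969736 counts. Markers of the K562 lineage were present, with the fetal globin gene HBG1 at 9282 to 9887 CPM, while MS4A1 and KRT5, of B cells and keratinocytes, were at 0. CPM here are counts per 1e6 of the library size after trimmed-mean (TMM) normalization. Chi-square per degree of freedom over genes was 1.25 to 1.68 between libraries of one group and 4.89 to 7.04 between libraries of different groups.

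Neighbouring start sites are shown for 3 pairs of chromosome 21 genes that are read away from each other, because each pair holds a listed gene and the members of a pair share a start region. The bases lie between the RefSeq starts of the pair in GRCh38.p14 and are read 5′ to 3′ on the plus strand. Capitals mark matches to CCGGAAG, the core of sites for ETS factors such as GABPA and ETS2, or to CACGTG, an E-box, on either strand.
SON and GART, chr21:33542893-33543037: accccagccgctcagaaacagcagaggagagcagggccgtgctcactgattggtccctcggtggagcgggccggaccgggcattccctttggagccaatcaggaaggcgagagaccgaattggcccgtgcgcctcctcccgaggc
TTC3 and PIGP, chr21:37073072-37073253: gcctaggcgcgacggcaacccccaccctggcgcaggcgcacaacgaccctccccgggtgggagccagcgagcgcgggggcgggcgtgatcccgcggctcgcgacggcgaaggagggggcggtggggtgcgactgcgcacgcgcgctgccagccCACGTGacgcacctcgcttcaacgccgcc
GABPA and ATP5J, chr21:25734905-25734971: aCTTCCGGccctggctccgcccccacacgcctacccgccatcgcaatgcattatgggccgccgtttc

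SON and GART are parted by 145 bases with a GC content of 66.2%, and log2 fold changes were -0.32 (SE 0.06) for SON and -0.49 (SE 0.05) for GART. TTC3 and PIGP are parted by 182 bases, and had log2 fold changes of -0.53 (SE 0.16) and -0.38 (SE 0.15). GABPA and ATP5J are parted by 67 bases, and had log2 fold changes of -0.19 (SE 0.12) and -0.04 (SE 0.06). Both genes of each pair lay below 0, as did 77.0% of all tested chromosome 21 genes. The 3 pairs are examples and not all pairs of this kind. MCM3AP and YBEY, also read away from each other, had log2 fold changes of -0.27 (SE 0.08) and 0.10 (SE 0.20). PIGP, ATP5J and YBEY are not on the list. A RefSeq window from 250 bases before to 50 bases after the start was found for 50 of the 60 listed genes. The ETS letters occurred in 12 of these 50 windows and in 10.7% of 27305 windows of all genes, and the E-box letters in 6 of the 50 and in 7.43% of all. The 27305 windows outnumber the 19330 genes of the count table. The shares thus rest on unlike sets of genes, and their difference was not tested. Among listed genes with a window, the ETS letters were in 2 of 15 that were lower past the threshold and in 10 of 30 other tested genes.

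Of the 60 listed genes, 54 passed the filter on low counts. The 6 that did not were APP, TIAM1, EVA1C, RCAN1, CBR3 and DOPEY2. RCAN1, an inhibitor of the phosphatase calcineurin, gave 5, 12 and 4 counts in sgCtrl against 8, 4 and 6 in sgN6AMT1. DOPEY2 had 4, 1 and 5 against 1, 3 and 2 counts, CBR3 2, 1 and 1 against 1, 0 and 1, and EVA1C had no count in any library. No fold change is given for these 6 genes.

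19 of the 54 tested genes were lower in sgN6AMT1 past the threshold (edgeR adjusted p under 0.05 over 9202 genes), and 1, SAMSN1, was higher. Of all tested genes, 13.9% were lower and 12.9% higher past the threshold. As the list was chosen with this contrast known, nothing is read from the difference. Every sgN6AMT1 library lay below every sgCtrl library in CPM for 22 of the 54 genes, against 19.2% of all tested genes, and above in 2, against 18.4%. The log2 fold change was below 0 for 40 of the 54 genes, against 49.0% of all tested genes. DESeq2, which shares information between genes in another way, called 12 of the listed genes lower. Over the whole table, DESeq2 gave 1329 genes past the threshold in either direction and edgeR 2473.

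The median log2 fold change of the 54 genes was -0.21, with quartiles of -0.45 and -0.02 and a range from -0.89 for CHAF1B to 0.49 for IFNAR2. The median of all 9202 tested genes was 0.01. On each of the 22 other chromosomes the median was between -0.06 on chromosome 11 and 0.11 on chromosome 15. The 32 tested chromosome 21 genes that are not listed, N6AMT1 left out, had a median of -0.31, with 17 lower and 1 higher past the threshold. These 32 include copies in duplicated sequence, such as CBS and U2AF1, whose reads cannot be assigned with certainty.

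**Figure D1:**
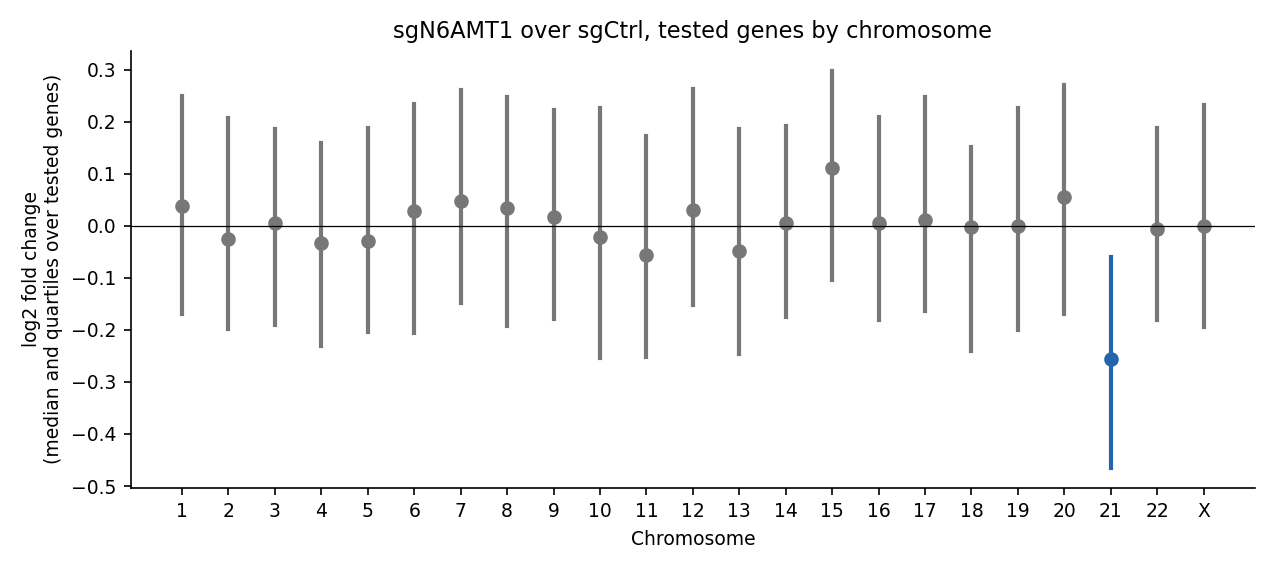
The vertical axis gives the log2 fold change of sgN6AMT1 over sgCtrl and the horizontal axis the chromosome, with a point for the median and a line from the lower to the upper quartile over tested genes. The median of the 87 tested genes of chromosome 21, N6AMT1 included, was -0.25, and the other 22 medians lay between -0.06 and 0.11.

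The lower values were present in each sgN6AMT1 library. The listed genes took 0.512, 0.514 and 0.499% of all counts in sgCtrl 1 to 3 and 0.444, 0.438 and 0.432% in sgN6AMT1 1 to 3, so that the groups did not overlap. The telomeric genes went from 0.455% ± 0.0077 (SD, n = 3) to 0.378% ± 0.0013 (SD, n = 3). The centromeric genes went the other way, from 0.0537% ± 0.0029 (SD, n = 3) to 0.0605% ± 0.0051 (SD, n = 3), a sum in which SAMSN1 has the largest counts. In this centromeric share the groups overlapped, with sgN6AMT1 3 at 0.0559% and sgCtrl 2 at 0.0569%. Taken gene by gene against the mean of sgCtrl, the median over the listed genes was -0.19, -0.25 and -0.25 in sgN6AMT1 1 to 3 on the log2 scale.

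**Figure D2:**
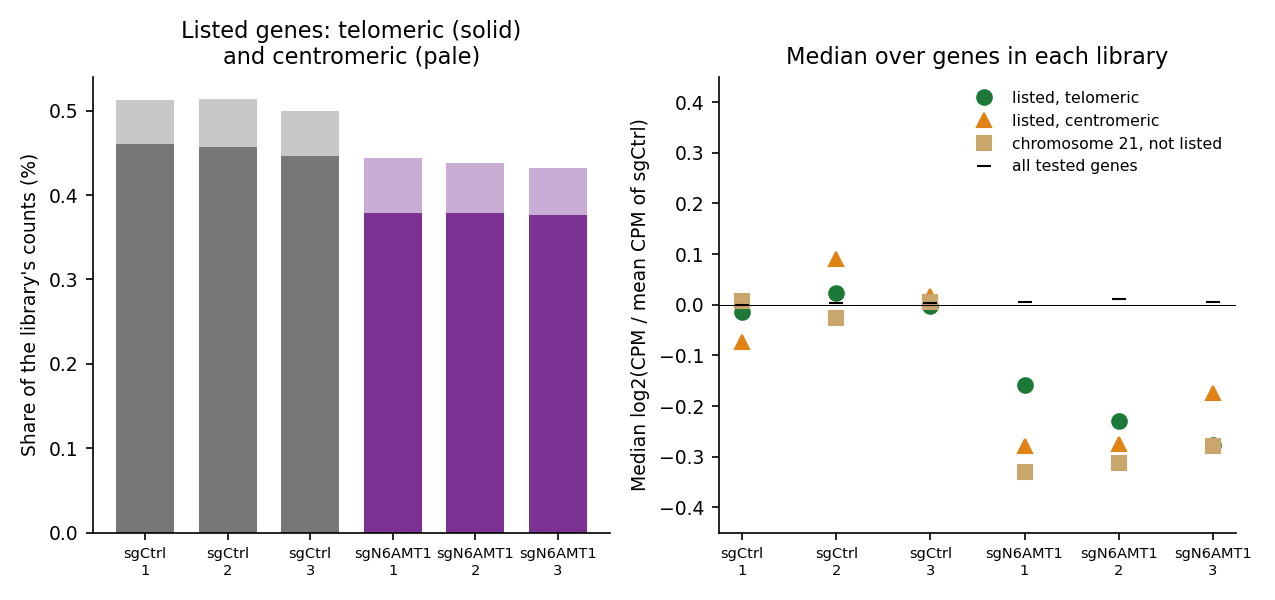
The left axis gives the share of the counts of each library, in percent, on telomeric (solid) and centromeric (pale) listed genes, and the right axis the median over genes of log2 CPM relative to the sgCtrl mean. The 3 sgN6AMT1 bars lie at 0.432 to 0.444%, below the 3 sgCtrl bars, and all 3 sgN6AMT1 medians of both sides of N6AMT1 lie below 0.

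Both sides of N6AMT1 had a median below 0. The counts of calls that follow stand beside 13.9% lower and 12.9% higher of all tested genes. The telomeric genes had a median of -0.21, with 17 of 46 tested genes lower and 0 higher past the threshold (0 higher also at an unadjusted edgeR p under 0.05 and by DESeq2). The centromeric genes had a median of -0.26, with 2 of 8 lower and 1 higher. The 12 listed genes that DESeq2 called lower are all telomeric. The centromeric median was -0.15 in a fit to genes with a mean of at least 50 counts and -0.17 over listed genes at that level. With either limit the difference between the sides, telomeric minus centromeric, turned from 0.05 to -0.099. Library by library that difference was 0.12, 0.05 and -0.10 in sgN6AMT1 1 to 3, a spread that includes 0. Along the telomeric side the median was -0.28 within 5 Mb of N6AMT1 (8 of 18 lower past the threshold), -0.22 from 5 to 10 Mb (2 of 8), -0.20 from 10 to 15 Mb (3 of 9) and -0.12 beyond 15 Mb (4 of 11). Across these 46 genes, which share libraries, Spearman's rho of log2 fold change with distance was 0.11. The 28 unlisted telomeric genes had a median of -0.28. Their lowest and highest values both lay beyond 15 Mb, C21orf33 at 15.3 Mb (-1.05, SE 0.18) and POFUT2 at 16.4 Mb (0.47, SE 0.18). A change with distance was not tested. The farthest listed gene with a lower call, PCNT at 17.5 Mb, had a log2 fold change of -0.65 (SE 0.11).

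**Figure D3:**
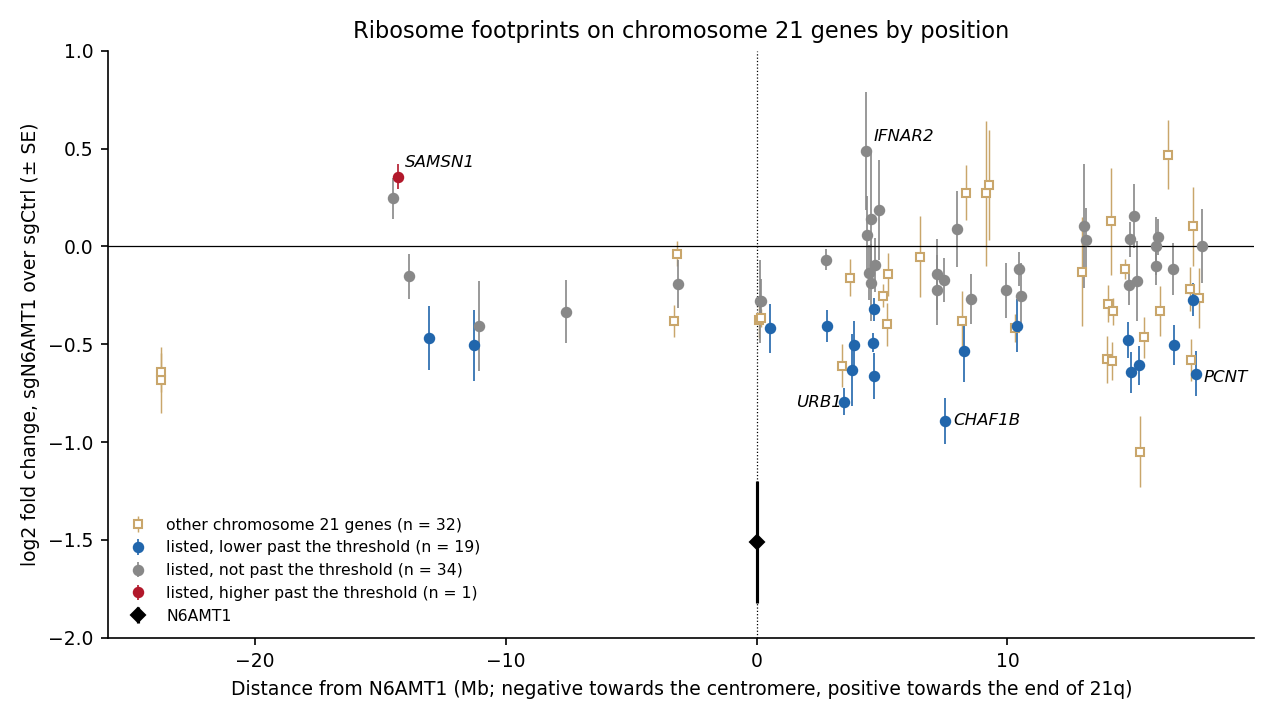
The horizontal axis gives the distance of each tested gene from N6AMT1 in Mb, negative towards the centromere, and the vertical axis the log2 fold change of sgN6AMT1 over sgCtrl with its SE. Of the 19 listed genes that were lower past the threshold (blue), 17 stand among uncalled genes (grey) on the telomeric side and 2, USP25 and BTG3, on the centromeric side, and SAMSN1 (red, 0.36) lies farthest but one towards the centromere among listed genes.

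The tested genes nearest to N6AMT1 on the telomeric side were RWDD2B, USP16, BACH1 and SOD1, with TIAM1 under the filter. RWDD2B had 25, 61 and 36 counts in sgCtrl against 38, 33 and 22 in sgN6AMT1, and its log2 fold change was -0.28 (SE 0.21). USP16, which removes ubiquitin from histone H2A, had 116, 195 and 136 against 139, 116 and 87 counts, a log2 fold change of -0.28 (SE 0.12). In both genes the CPM of the groups overlapped, and neither passed the threshold. BACH1, a heme-sensitive repressor of iron and antioxidant genes, had 119, 143 and 101 counts in sgCtrl against 86, 91 and 76 in sgN6AMT1. Its mean went from 53.0 ± 5.9 CPM (SD, n = 3) to 39.4 ± 1.8 CPM (SD, n = 3) with no overlap, a log2 fold change of -0.42 (SE 0.12). Without sgCtrl replicate 1 it was -0.33 and no longer past the threshold, and DESeq2 did not call it. SOD1, the cytosolic superoxide dismutase, had 1260, 1824 and 1328 against 1432, 1417 and 1082 counts. Its CPM fell just short of overlapping, at 629 to 655 in sgCtrl and 587 to 628 in sgN6AMT1, and its log2 fold change of -0.07 (SE 0.05) did not pass the threshold.

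On the centromeric side the nearest listed genes were APP, GABPA, NCAM2, C21orf91 and BTG3. APP, the amyloid precursor protein, was almost without footprints, at 0, 0 and 1 counts in sgCtrl against 2, 0 and 0 in sgN6AMT1. GABPA, the ETS factor that drives many genes of mitochondria, had 96, 184 and 106 against 104, 123 and 86 counts, a log2 fold change of -0.19 (SE 0.12) with overlapping CPM. NCAM2, a neural adhesion molecule, had 63, 82 and 58 against 53, 57 and 40 counts. Its CPM were lower in every sgN6AMT1 library, but the log2 fold change of -0.33 (SE 0.16) did not pass the threshold. C21orf91 had 22, 48 and 36 against 21, 28 and 25 counts and overlapped between groups, at -0.41 (SE 0.23). BTG3, an antiproliferative protein, had 50, 70 and 54 against 38, 40 and 36 counts. Its mean CPM went from 25.3 ± 1.3 (SD, n = 3) to 17.8 ± 1.5 (SD, n = 3), a log2 fold change of -0.51 (SE 0.18). The call was lost under 6 of 16 alternatives, among them DESeq2 and the fits without sgCtrl replicate 3, sgN6AMT1 replicate 1 or sgN6AMT1 replicate 2.

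By role, the ribosome biogenesis and RNA genes stood lowest among the groups of more than 2 genes. As the listed genes were chosen with this contrast known, nothing is read from the order of the groups. All 8 were lower in sgN6AMT1 past the threshold, against 13.9% of all tested genes. None overlapped between the groups, against 19.2% of all tested genes that were lower without overlap. Their median log2 fold change was -0.49. All but RRP1 have a coding sequence of 2000 bases or more, and role and length were not told apart. The other 46 tested genes had a median of -0.18, with 11 lower and 1 higher past the threshold. The 8 genes are spread from 2.82 to 17.4 Mb on the telomeric side, with RRP1B, RRP1 and PWP2 close together at 14.8 to 15.2 Mb. URB1, an assembly factor of the large ribosomal subunit, gave 542, 734 and 489 counts in sgCtrl 1 to 3 against 324, 357 and 268 in sgN6AMT1. Its mean dropped from 255 ± 16 CPM to 147 ± 6.3 CPM (SD, n = 3), and its log2 fold change was -0.79 (SE 0.07). RRP1, which acts in processing of the large subunit rRNA, had 222, 306 and 188 against 154, 137 and 134 counts. Its mean fell from 103 ± 9.6 to 66.5 ± 6.8 CPM (SD, n = 3), a log2 fold change of -0.64 (SE 0.10).

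RRP1B, its paralog, was at 124, 116 and 134 CPM in sgCtrl and at 87.7, 92.0 and 86.9 CPM in sgN6AMT1 (log2 fold change -0.48, SE 0.09). PWP2, a subunit of the UTP-B complex of the small subunit processome, had 242, 308 and 218 counts against 171, 162 and 137, 112 ± 8.5 against 73.1 ± 2.7 CPM (SD, n = 3), a log2 fold change of -0.61 (SE 0.10). Each of these 4 ribosome assembly genes was lower in every sgN6AMT1 library than in any sgCtrl library. Of the RNA genes, SON, a scaffold of splicing speckles, was at 584, 527 and 455 CPM against 414, 413 and 428 CPM, and its sgCtrl values were spread more widely than those of sgN6AMT1. SCAF4, which binds RNA polymerase II and restrains early polyadenylation, was at 151, 154 and 150 CPM against 111, 119 and 113 CPM, a log2 fold change of -0.41 (SE 0.08). PAXBP1, a nuclear factor linked to splicing, had a log2 fold change of -0.50 (SE 0.12). MCM3AP, the scaffold of the mRNA export complex TREX-2, had the smallest change of the 8, at -0.27 (SE 0.08). It was -0.19 and not past the threshold without sgN6AMT1 replicate 2, and DESeq2 did not call it.

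**Figure D4:**
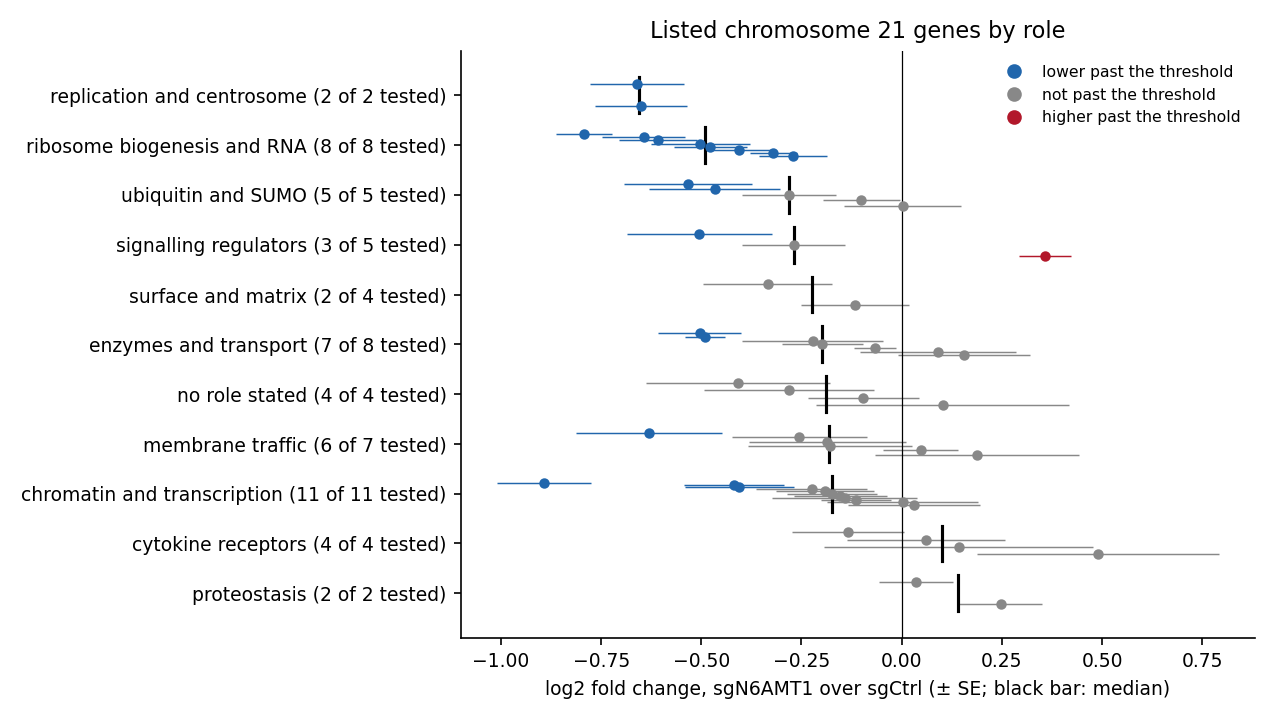
The horizontal axis gives the log2 fold change of each tested listed gene with its SE, by role on the vertical axis, and the black bars are group medians. All 8 genes of ribosome biogenesis and RNA are blue (lower past the threshold), while the 4 cytokine receptor genes are grey and have a median of 0.10.

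The replication and centrosome genes were both lower. DONSON, which helps to load the replicative helicase, had 136, 201 and 152 counts in sgCtrl against 108, 97 and 83 in sgN6AMT1. Its mean CPM was 70.8 ± 3.6 against 44.8 ± 2.7 (SD, n = 3), a log2 fold change of -0.66 (SE 0.12). PCNT, the pericentrin of the centrosome, had 161, 221 and 175 against 106, 112 and 112 counts, and 81.1 ± 5.0 against 51.9 ± 7.8 CPM (SD, n = 3). In both genes all sgN6AMT1 libraries lay below all sgCtrl libraries. The coding sequence (CDS) of DONSON shares 286 bases, and that of PCNT 112 bases, with that of another annotated gene on the same strand.

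Of 11 chromatin and transcription genes, 3 were lower past the threshold and 9 lay below 0, with a median of -0.17. The shares of all tested genes were 13.9% and 49.0%. CHAF1B, a subunit of the chromatin assembly factor CAF-1 that places histones on new DNA, was the lowest of all listed genes. It had 142, 242 and 167 counts in sgCtrl against 93, 98 and 84 in sgN6AMT1, 79.0 ± 6.7 against 42.9 ± 2.5 CPM (SD, n = 3), a log2 fold change of -0.89 (SE 0.12). BRWD1, a bromodomain protein, was at -0.40 (SE 0.14). It lost its call under 5 of 17 alternatives, at -0.34 without sgCtrl replicate 2 or sgN6AMT1 replicate 2, -0.41 with DESeq2, -0.28 with CDS length and GC trends removed and -0.17 with all libraries thinned to the smallest total. The transcription factor ETS2 was at -0.22 (SE 0.14), the nuclear receptor corepressor NRIP1 at -0.15 (SE 0.11), the nucleosome binding protein HMGN1 at -0.11 (SE 0.09) and MORC3 at -0.17 (SE 0.11). None of these 4 passed the threshold. ZBTB21 at 0.03 (SE 0.16) and PRMT2, an arginine methyltransferase, at 0.00 (SE 0.19) were about level, and both values changed sign under some alternative settings.

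Among enzymes and transporters, 2 of 7 tested genes were lower past the threshold, against 13.9% of all tested genes. GART, the enzyme of 3 steps of purine synthesis, was at 906, 922 and 889 CPM in sgCtrl and at 650, 663 and 619 CPM in sgN6AMT1. SLC19A1, the reduced folate carrier, was at 97.4, 96.5 and 98.6 against 67.1, 62.6 and 77.6 CPM, a log2 fold change of -0.50 (SE 0.10). In both genes the lowest sgCtrl library lay well above the highest sgN6AMT1 library. PDXK, which makes the active form of vitamin B6, was at -0.20 (SE 0.10), and CBR1, a carbonyl reductase, at -0.22 (SE 0.18), neither past the threshold. HLCS, which attaches biotin to carboxylases, had 31, 48 and 46 against 42, 42 and 40 counts (log2 fold change 0.09, SE 0.19). AGPAT3, a phospholipid acyltransferase, had 46, 79 and 44 against 59, 73 and 43 counts (0.16, SE 0.17). Both overlapped between the groups.

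In the ubiquitin and SUMO group, USP25 and TTC3 were lower past the threshold and 3 genes were not, against 13.9% lower of all tested genes. USP25, a deubiquitinase, was at 29.6, 27.6 and 38.0 CPM in sgCtrl and at 25.4, 22.9 and 19.0 CPM in sgN6AMT1 (log2 fold change -0.47, SE 0.16). TTC3, a ubiquitin ligase, was at 33.7, 33.4 and 30.6 against 25.9, 19.0 and 22.8 CPM. Neither gene overlapped between groups. Both calls were lost with DESeq2 and again without sgN6AMT1 replicate 2, while that of USP25 was also lost without sgCtrl replicate 3 or sgN6AMT1 replicate 3. UBE2G2, a ubiquitin conjugating enzyme, was at -0.10 (SE 0.10) and SUMO3 at 0.00 (SE 0.15). Of the membrane traffic genes, SYNJ1, a phosphoinositide phosphatase of endocytosis, was at 32.1, 27.6 and 23.7 against 19.3, 12.5 and 22.8 CPM (-0.63, SE 0.18). It was -0.41 and not past the threshold without sgN6AMT1 replicate 2, and DESeq2 did not call it. ITSN1, an endocytic scaffold, had 15, 29 and 23 against 22, 27 and 22 counts (0.19, SE 0.26), and overlapped. WRB, which helps to insert tail-anchored proteins, was at -0.25 (SE 0.17), and TRAPPC10, a subunit of a Golgi tethering complex, at -0.18 (SE 0.20).

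The 4 cytokine receptor genes, which lie side by side between 4.36 and 4.56 Mb from N6AMT1, had 0 calls in either direction, at an unadjusted edgeR p under 0.05 and by DESeq2 as well. Of all tested genes, 13.9% were lower and 12.9% higher past the threshold, so with 4 genes nothing is read from the absence of calls. IFNAR2, a chain of the type I interferon receptor, had 11, 20 and 11 counts in sgCtrl against 22, 20 and 13 in sgN6AMT1. Its CPM were higher in every sgN6AMT1 library, but the log2 fold change of 0.49 (SE 0.30) did not pass the threshold. IFNAR1, the other chain, was at 34.2, 35.2 and 44.4 against 33.8, 38.9 and 29.3 CPM (-0.13, SE 0.14). IL10RB, shared by receptors for interleukin 10 and type III interferons, had a log2 fold change of 0.06 (SE 0.20), and IFNGR2, of the interferon gamma receptor, 0.14 (SE 0.34). The groups overlapped in these 3 genes. IFNAR2 and IL10RB share 1545 and 926 coding bases with a readthrough gene that joins them, so their reads are uncertain. GART and SON, past the threshold, lie at 4.64 and 4.68 Mb, next to these receptors.

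Among listed genes with a mean of at least 10 CPM, the highest log2 fold changes were those of a neighbouring pair at the centromeric end of the list. SAMSN1, an adaptor protein of blood cells, had 493, 786 and 477 counts in sgCtrl against 819, 729 and 540 in sgN6AMT1. Its mean was 251 ± 18 CPM (SD, n = 3) against 322 ± 34 CPM (SD, n = 3) with no overlap, a log2 fold change of 0.36 (SE 0.07). HSPA13, an Hsp70-like protein of the secretory pathway and its neighbour, had 135, 239 and 159 against 235, 208 and 145 counts (0.25, SE 0.10). HSPA13 overlapped between groups and did not pass the threshold. The 6 other tested centromeric genes all lay below 0, with a median of -0.37. The kinase DYRK1A was at -0.27 (SE 0.13) and the matrix gene COL18A1 at -0.12 (SE 0.13), neither past the threshold. The protease inhibitor CSTB was at 0.04 (SE 0.09) and PTTG1IP at 0.05 (SE 0.09).

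**Figure D5:**
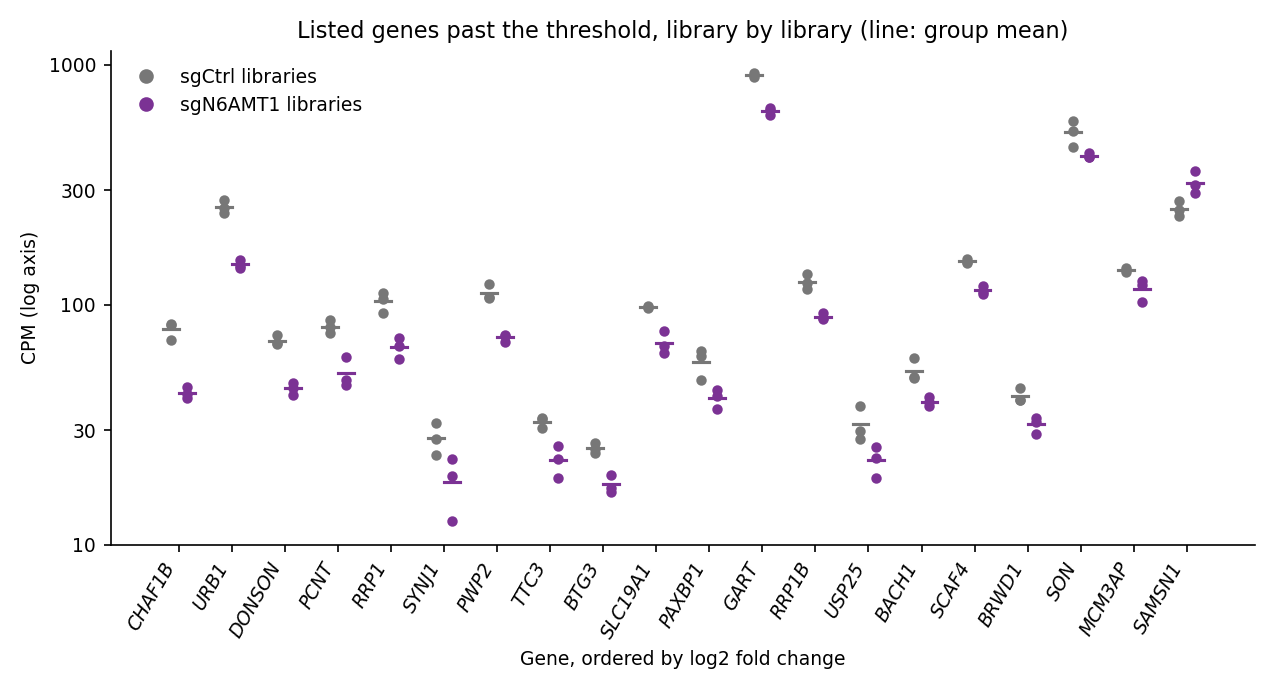
The vertical axis gives CPM on a log axis for each listed gene past the threshold, ordered by log2 fold change, with a point for each of 3 sgCtrl (grey) and 3 sgN6AMT1 (purple) libraries and a line for the group mean. In the 19 lower genes every purple point lies below every grey point, from CHAF1B (-0.89) to MCM3AP (-0.27), and in SAMSN1 every purple point lies above.

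Levels per length differed widely among the listed genes. In sgCtrl the mean was 1383 CPM per 1000 bases of CDS for SOD1, 358 for CSTB and 347 for HMGN1. It was 299 for GART, 200 for UBE2G2 and 190 for SAMSN1, against 1.86 for ITSN1. Of these, GART was lower and SAMSN1 higher past the threshold, and the others had no call. Listed genes with a CDS of 2000 bases or more had a median log2 fold change of -0.33 (13 of 24 lower past the threshold), those of 1000 to just under 2000 bases -0.13 (4 of 15) and those under 1000 bases -0.11 (1 of 12). Over all tested genes the medians of the same classes were -0.05, 0.02 and 0.05, with 17.1, 13.0 and 11.8% lower past the threshold. The ribosome biogenesis and RNA genes, apart from RRP1, belong to the longest class. Spearman's rho with CDS length was -0.39 across the 51 listed genes with a known CDS and -0.13 across 8528 genes of other chromosomes, and the part of length in the listed genes' values was not tested beyond the alternative that removes its trend, which gave 21 lower genes and a median of -0.25.

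Partner lists held 59 genes on other chromosomes whose products work with listed ones or in the same process, or which BACH1 represses. Of these, 54 were tested, and 9 (16.7%) were lower and 6 higher past the threshold, against 13.9% and 12.9% of all tested genes. Their median log2 fold change was -0.04. Among the 6 higher genes, 3 belong to those that BACH1 represses. The lists were chosen with earlier results of these data known, so the adjusted p printed for their genes here and below are a description. In de novo purine synthesis, the pathway of GART, 3 of 5 were lower (2 by DESeq2). ATIC, the last enzyme of the pathway, was at 339, 362 and 367 CPM in sgCtrl and at 282, 271 and 275 CPM in sgN6AMT1 (log2 fold change -0.37, SE 0.06, edgeR adjusted p = 5.26e-07). PAICS was at -0.19 (SE 0.05, edgeR adjusted p = 0.00125) and PFAS at -0.31 (SE 0.09, edgeR adjusted p = 0.00543), while ADSL at -0.13 and PPAT at 0.01 did not pass. The changes of the 3 genes were smaller than the -0.49 of GART, a difference that was not tested.

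In UTP-B, the complex of PWP2, 3 of 5 partners were lower (2 by DESeq2), namely WDR36 at -0.42 (SE 0.07, edgeR adjusted p = 4.47e-07), TBL3 at -0.29 (SE 0.08, edgeR adjusted p = 0.00602) and WDR3 at -0.28 (SE 0.07, edgeR adjusted p = 0.000831). UTP6 and UTP18 did not pass. The calls for UTP-B and for CAF-1, which follows, stand beside 13.9% lower and 12.9% higher of all tested genes. Of the CAF-1 partners of CHAF1B, CHAF1A was at 0.04 (SE 0.11) and did not pass, and RBBP4, which also serves other histone complexes, was at -0.15 (SE 0.05, edgeR adjusted p = 0.014). The groups of CHAF1A overlapped, at 61.1 to 69.0 CPM in sgCtrl and 62.7 to 73.8 CPM in sgN6AMT1.

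Among 9 tested genes that BACH1 represses, 3 were higher and 0 lower, with 0 lower at an unadjusted edgeR p under 0.05 and by DESeq2 too. The shares over all tested genes were 12.9% higher and 13.9% lower, so with 9 genes nothing is read from the absence of lower calls. A link of these values to that of BACH1 was not tested. FTH1 and FTL, the chains of the iron store ferritin, were at 0.88 (SE 0.09, edgeR adjusted p = 7.96e-15) and 0.94 (SE 0.09, edgeR adjusted p = 8.88e-16), and NQO1, a quinone reductase, at 0.28 (SE 0.07, edgeR adjusted p = 0.000848). FTL was at 79.4, 83.4 and 104 CPM in sgCtrl and at 155, 178 and 179 CPM in sgN6AMT1. FTH1 and FTL have many processed copies, so their reads are uncertain. The other 6, among them TXNRD1 and GCLM, did not pass. HMOX1, a further target, had no count in any library.

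Of the partners in interferon and interleukin 10 signalling, IFNGR1 (0.57, SE 0.14, edgeR adjusted p = 0.00087) and IL10RA (2.38, SE 0.38, edgeR adjusted p = 2.25e-07) were higher. IL10RA, the chain that pairs with IL10RB, had 2, 8 and 4 counts in sgCtrl against 24, 19 and 26 in sgN6AMT1. JAK2 (-0.54, SE 0.16, edgeR adjusted p = 0.00492) and STAT3 (-0.39, SE 0.08, edgeR adjusted p = 4.62e-05) were lower. JAK1 and TYK2 did not pass. Over the 8 tested genes of this list edgeR called 2 lower and 2 higher, against 13.9% and 12.9% of all tested genes. DESeq2 called 1 gene of this list higher and 1 lower. Of 6 TRAPP II partners of TRAPPC10, TRAPPC1 was higher (0.35, SE 0.13, edgeR adjusted p = 0.0278), a call that DESeq2 did not make. Of 7 tested calcineurin and NFAT genes, 5 partners of WRB, 4 of MCM3AP, 2 superoxide enzymes and 1 partner of GABPA, 0 passed in edgeR, 0 had an unadjusted edgeR p under 0.05 and 0 were called by DESeq2. Beside the shares of all tested genes, nothing is read from the absence of calls in lists this small.

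The chromosome arms that carry a named control target were set beside these values. The 132 tested genes from OR11A1 to the end of 6p had a median log2 fold change of -0.03, with 43 (32.6%) lower and 16 higher past the threshold. The 174 tested genes of 6p on its other side had a median of 0.09, with 22 (12.6%) lower and 34 higher. Of all tested genes, 13.9% were lower and 12.9% higher, and no cause of the difference was tested. Beyond OR2M4 towards the end of 1q, 4 genes were tested and had a median of 0.05, against 0.03 for 435 other genes of 1q.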

How the data were processed

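The authors trimmed and mapped footprint reads to GRCh38 and to 1 canonical transcript per gene, assigned ribosomal P-sites and deposited whole-number counts per gene, neither normalized nor pooled. Counts by overlap with an annotation were made too, and the sources do not say which kind the deposited table holds. The study's methods describe n = 3 transductions. Whether PCR copies were collapsed before counting is not given in the sources used here.

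Genes were placed by transcript identifier (91.5% of 19330) or symbol on GENCODE annotation in GRCh38. edgeR 4.0.16 in R 4.3.3 tested 9202 genes that passed filterByExpr (minimum of 10 counts; the genes removed held 0.465% of counts) with TMM factors and the quasi-likelihood F test, 2-sided, with Benjamini-Hochberg adjustment over all genes, called at 0.05. The SE of a log2 fold change comes from the F statistic. Medians over genes are descriptions.

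The members and lists were chosen with earlier results of these data known. Full values were given by rule for N6AMT1, the 5 listed genes nearest to it on each side, and the 5 lowest and 5 highest log2 fold changes among listed genes with a mean of at least 10 CPM. The role groups and partner lists completed the rule. Alternatives were DESeq2 1.42.0, other scaling factors, other filters, limma-voom (limma 3.58.1), a replicate block, removal of CDS length and GC trends, thinning and leaving out each library. The test was tested on simulated data. Same-numbered libraries of the 2 groups had correlations of deviations of -0.06, 0.02 and 0.02, so the numbers were not taken to pair samples.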

Additional observations from a re-analysis of the deposited data

How the results depend on the processing

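Of the 20 listed genes past the threshold, 13 kept the call under all 17 alternatives, and 7 (BACH1, BRWD1, BTG3, MCM3AP, SYNJ1, TTC3 and USP25) lost it under some. DESeq2 was among the alternatives that dropped each of these 7 calls. None of the 20 changed sign, and 8 uncalled genes passed under some. Lower genes numbered 12 with DESeq2, which called 1329 genes in all, and 13 to 19 when a library was left out, lowest without sgN6AMT1 replicate 2. Higher genes numbered 2 with total counts, with a mean of at least 50 counts and with CDS length and GC trends removed, and 1 to 2 when a library was left out. The replicate block gave 19 lower and 1 higher gene, 2390 genes in all and a median of -0.21, and changed no count by over 1.5 times.

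The median of the listed genes was -0.16 with total counts, -0.25 with trends removed and -0.27 to -0.18 when a library was left out. The telomeric median was -0.27 over listed genes with a mean of at least 50 counts and -0.28 to -0.18 without a library. The centromeric median, over few genes, was -0.19 with DESeq2, -0.20 without a filter, -0.15 in the fit to genes with a mean of at least 50 counts, -0.17 over listed genes at that level, -0.34 after thinning, -0.36 over every tested gene of that side and -0.32 to -0.22 without a library. Telomeric minus centromeric, 0.05 with all listed genes, was -0.099 with either limit of 50 counts. The cause of these moves was not tested, apart from the fewer genes that the limits of 50 counts leave.

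Values near 0 changed sign. After thinning IFNGR2 was -0.23, ZBTB21 -0.19 and SUMO3 -0.038. With trends removed CSTB was -0.11, SUMO3 -0.13, PTTG1IP -0.089 and PRMT2 -0.099. Without a filter SUMO3 was -0.0074 and PRMT2 -0.0079, and PRMT2 was -0.013 with DESeq2 and -0.00032 with TMM factors set without chromosome 21. When a library was left out, the ranges were -0.069 to 0.18 for IL10RB, -0.020 to 0.28 for IFNGR2, -0.047 to 0.39 for C2CD2, -0.077 to 0.094 for ZBTB21, -0.041 to 0.090 for CSTB, -0.077 to 0.12 for SUMO3 and -0.10 to 0.081 for PRMT2.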
